A study of Mus musculus with 6 samples.

Results

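The acute phase genes described here are Saa1, Saa2, Saa3 and Saa4 (serum amyloid A proteins), Lcn2 (lipocalin 2), Orm1, Orm2 and Orm3 (orosomucoids), Hp (haptoglobin) and Socs3 (suppressor of cytokine signaling). They were picked by gene symbol, with earlier results of these data known, and make up 10 of the 55401 gene models in the table. All 10 passed the filter of a mean of at least 0.1 FPKM (fragments per kilobase of gene length and per unit of library depth), as did 14741 gene models in all. Livers came from 3 mice treated with 9/13-HODEs and from 3 Ctrl mice, with 1 library per mouse. The mice were C57BL6 males, 8 weeks old, injected into the peritoneum once daily over 9 days. The 9/13-HODEs group received 9-HODE and 13-HODE in equal parts, which are hydroxylated products of the fatty acid linoleic acid, and the Ctrl group received the solvent. The labels name no altered allele in either group, and injection and handling were common to both. The comparison addresses how 9/13-HODEs treatment changed liver gene expression.

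Acute phase genes are the genes by which the liver answers inflammation or injury. Interleukin-6 acts through its receptor, the JAK kinases and STAT3, and interleukin-1 acts through NF-kB, on hepatocyte promoters that also bind C/EBP factors, while Socs3 is switched on by STAT3 and feeds back on the receptor. In mice Saa1 and Saa2 are the strongly inducible serum amyloid A genes of the liver, Saa3 is made largely outside hepatocytes, for example in macrophages and fat, and Saa4 is expressed constitutively.

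No member passed the test, but several had higher values in 9/13-HODEs-treated livers. Mean FPKM was 77.2 ± 74.4 for Saa1 in 9/13-HODEs-treated livers and 24.5 ± 10.6 in Ctrl livers, and 24.4 ± 21.6 for Saa2 in 9/13-HODEs-treated livers and 6.72 ± 3.63 in Ctrl livers (SD, n = 3 each). Lcn2 and Orm3 had fitted folds of 2.63 and 2.14. Orm1 was the only member whose groups did not overlap, on the higher side, where 5.28% of all genes did not (9.82% on the lower side). Hp and Saa4 had folds near 1, at 0.976 and 0.908, and Socs3 had a fold of 0.506. Much of the spread lay within the groups: 9/13-HODEs replicate 3 held the highest value of Saa1, Saa2 and Orm2, and Ctrl replicate 2 stood above the other Ctrl livers for most members.

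The libraries held 71710457 to 78615288 counts in the 9/13-HODEs group and 70300597 to 74018372 counts in the Ctrl group. The 10 members together took 0.578% to 0.846% of the counts in 9/13-HODEs libraries and 0.592% to 0.799% in Ctrl libraries, most of it from Hp. Of the hepatocyte markers, Alb took 7.20% to 8.96% of the counts in 9/13-HODEs libraries and 7.17% to 9.92% in Ctrl libraries, and all 6 hepatocyte markers were detected in every library. Over the 6 markers, log2 fold changes were above 0 for 4 and below 0 for 2, with a median of 0.06. With FPKM scaled to a common sum, 1 was above 0. Cps1, a urea cycle enzyme of hepatocytes, was lower without overlap, where 9.82% of all genes were. It had 163, 156 and 157 FPKM in 9/13-HODEs libraries and 221, 181 and 201 FPKM in Ctrl libraries. The log2 fold change of Cps1 was -0.28 (edgeR unadjusted p = 0.0491, adjusted p = 0.649). At an unadjusted p under 0.05, 3.61% of all genes were lower. Apob, another hepatocyte marker, was uneven within both groups, at 93.3, 93.3 and 7.74 FPKM in 9/13-HODEs libraries and 9.30, 8.04 and 67.8 FPKM in Ctrl libraries. By edgeR's common dispersion, counts of a gene varied among mice treated alike with a coefficient of variation of 0.36.

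The table's coordinates follow GRCm38, as all 10 gene starts equal those of GENCODE M21. The 4 serum amyloid A genes lie side by side on chromosome 7, with Saa3 at 46711998 to 46715700, Saa4 at 46727998 to 46732603, Saa1 at 46740497 to 46742980 (these 3 on the minus strand) and Saa2 at 46751790 to 46754313 on the plus strand. The orosomucoid genes lie on the plus strand of chromosome 4, with Orm1 at 63344560 to 63348163, Orm3 at 63356162 to 63359511 and Orm2 at 63362449 to 63365878. Lcn2 is on chromosome 2 at 32384633 to 32387797, Hp on chromosome 8 at 109575128 to 109579172 and Socs3 on chromosome 11 at 117966079 to 117970047, all on the minus strand. No other annotated gene overlaps any member. The Saa1 and Saa2 transcripts are 93.5% identical over 612 bases, and those of Orm1 and Orm2 are 91.0% identical over 775 bases. How reads were divided within these pairs is therefore uncertain.

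RefSeq promoters on GRCm38.p6 were matched for 8 of the 10 members. The 150 bases before the RefSeq start are shown for Saa1 and Saa2, which had the largest folds, for Saa3, their neighbour with a smaller fold, and for Orm2 and Orm3, 5′ to 3′ on the strand of the gene. They lie at chr7:46742981-46743130 (minus strand) for Saa1, chr7:46751683-46751832 (plus) for Saa2, chr7:46715677-46715826 (minus) for Saa3, chr4:63362299-63362448 (plus) for Orm2 and chr4:63356008-63356157 (plus) for Orm3. For Saa2 and Saa3 the RefSeq start lies inside the gene model of the table. Capitals mark matches to TTNNGNAA, a motif of C/EBP type, on either strand.
Saa1: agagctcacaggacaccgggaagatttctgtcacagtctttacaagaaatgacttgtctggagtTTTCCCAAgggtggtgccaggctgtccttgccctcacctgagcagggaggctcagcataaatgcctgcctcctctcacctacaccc
Saa2: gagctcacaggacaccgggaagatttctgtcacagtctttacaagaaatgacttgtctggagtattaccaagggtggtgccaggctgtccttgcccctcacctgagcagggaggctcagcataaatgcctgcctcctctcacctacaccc
Saa3: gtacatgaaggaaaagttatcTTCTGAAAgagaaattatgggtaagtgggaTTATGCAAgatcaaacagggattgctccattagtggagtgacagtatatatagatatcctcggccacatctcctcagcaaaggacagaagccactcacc
Orm2: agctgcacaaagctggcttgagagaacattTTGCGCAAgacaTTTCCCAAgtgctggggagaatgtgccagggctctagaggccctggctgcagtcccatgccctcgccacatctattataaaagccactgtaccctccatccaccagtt
Orm3: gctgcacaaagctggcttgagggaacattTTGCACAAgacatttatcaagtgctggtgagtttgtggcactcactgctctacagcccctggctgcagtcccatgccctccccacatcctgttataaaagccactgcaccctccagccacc
The windows of Saa1 and Saa2 share 147 of 150 bases, whereas those of Saa1 and Saa3 share 79, and those of Orm2 and Orm3 share 129. The C/EBP letters were searched in the 250 bases before the start, on both strands, and were found in 7 of the 8 promoters (Saa1, Saa2, Saa3, Saa4, Lcn2, Orm2 and Orm3), against 36.8% of all 32851 promoters. Saa1 and Saa2 both hold the match TTGCACAA upstream of the printed window, where the first base is 182 bases before the start for Saa1 and 183 for Saa2, and the same 8 letters stand in capitals in Orm3. TTCNNNGAA, a motif of STAT type, was found only in the Socs3 promoter, against 7.02% of all promoters. TATAAA was found in Orm2 and Orm3, against 12.4% of all promoters. The NF-kB consensus was found in none of the 8, against 3.9% of all promoters. No match to one motif overlapped a match to another in these promoters.

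Saa1, an apolipoprotein of high-density lipoprotein that is released in large amounts in inflammation, had 31.8, 36.8 and 163 FPKM in 9/13-HODEs-treated livers and 21.7, 36.1 and 15.5 FPKM in Ctrl livers. 9/13-HODEs replicate 3 stood far above all other livers, while 9/13-HODEs replicate 1 lay below Ctrl replicate 2, so the groups overlapped. The log2 fold change was 1.75 (SE 0.73, 95% interval 0.0056 to 3.50), with an unadjusted p of 0.0495 and an adjusted p of 0.649 by the quasi-likelihood test of edgeR after Benjamini-Hochberg correction. Without 9/13-HODEs replicate 3 it was 0.50, and without Ctrl replicate 2 it was 2.19. In bulk liver RNA, a change in the number of cells of a type and a change in RNA per cell cannot be told apart.

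Saa2, whose protein is of the same kind as Saa1, had 10.2, 13.7 and 49.2 FPKM in 9/13-HODEs-treated livers and 6.01, 10.7 and 3.50 FPKM in Ctrl livers. The same liver was highest, and the overlap was narrow, with 9/13-HODEs replicate 1 just below Ctrl replicate 2. Saa2 had a log2 fold change of 1.94 (SE 0.73, 95% interval 0.19 to 3.69; edgeR unadjusted p = 0.0343, adjusted p = 0.649), which was 0.83 without 9/13-HODEs replicate 3. Added together, which lessens but does not remove the doubt on how reads were divided, Saa1 and Saa2 had 42.0, 50.5 and 212 FPKM in 9/13-HODEs-treated livers and 27.7, 46.8 and 19.0 FPKM in Ctrl livers. The ratio of Saa1 to Saa2 FPKM was 3.14, 2.68 and 3.31 in 9/13-HODEs-treated livers and 3.61, 3.39 and 4.44 in Ctrl livers. Each 9/13-HODEs liver had a lower ratio than each Ctrl liver, which was looked at after the values were seen and was not tested.

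Saa3 was low in liver, with 1.92, 1.82 and 3.50 FPKM in 9/13-HODEs-treated livers and 1.29, 2.57 and 1.27 FPKM in Ctrl livers. The highest value was again 9/13-HODEs replicate 3, and Ctrl replicate 2 lay above the other 9/13-HODEs livers. The log2 fold change of Saa3 was 0.57 (SE 0.42, 95% interval -0.45 to 1.58; edgeR adjusted p = 0.764), which was 0.14 without 9/13-HODEs replicate 3 and 1.03 without Ctrl replicate 2 (unadjusted p = 0.0403). Saa4, the constitutive member, had 72.7, 97.3 and 96.5 FPKM in 9/13-HODEs-treated livers and 90.8, 135 and 79.3 FPKM in Ctrl livers. The groups of Saa4 were fully interleaved, and 9/13-HODEs replicate 3 did not stand out. The log2 fold change of Saa4 was -0.14 (SE 0.25, 95% interval -0.74 to 0.46; edgeR adjusted p = 0.908), and 0.16 without Ctrl replicate 2. Saa1 and Saa2 made up 36.0%, 33.8% and 68.0% of the FPKM of the 4 serum amyloid A genes in 9/13-HODEs-treated livers and 23.1%, 25.4% and 19.1% in Ctrl livers. This share was higher in each 9/13-HODEs liver than in each Ctrl liver, a comparison chosen after the values were seen and given with no test.

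**Figure D1:**
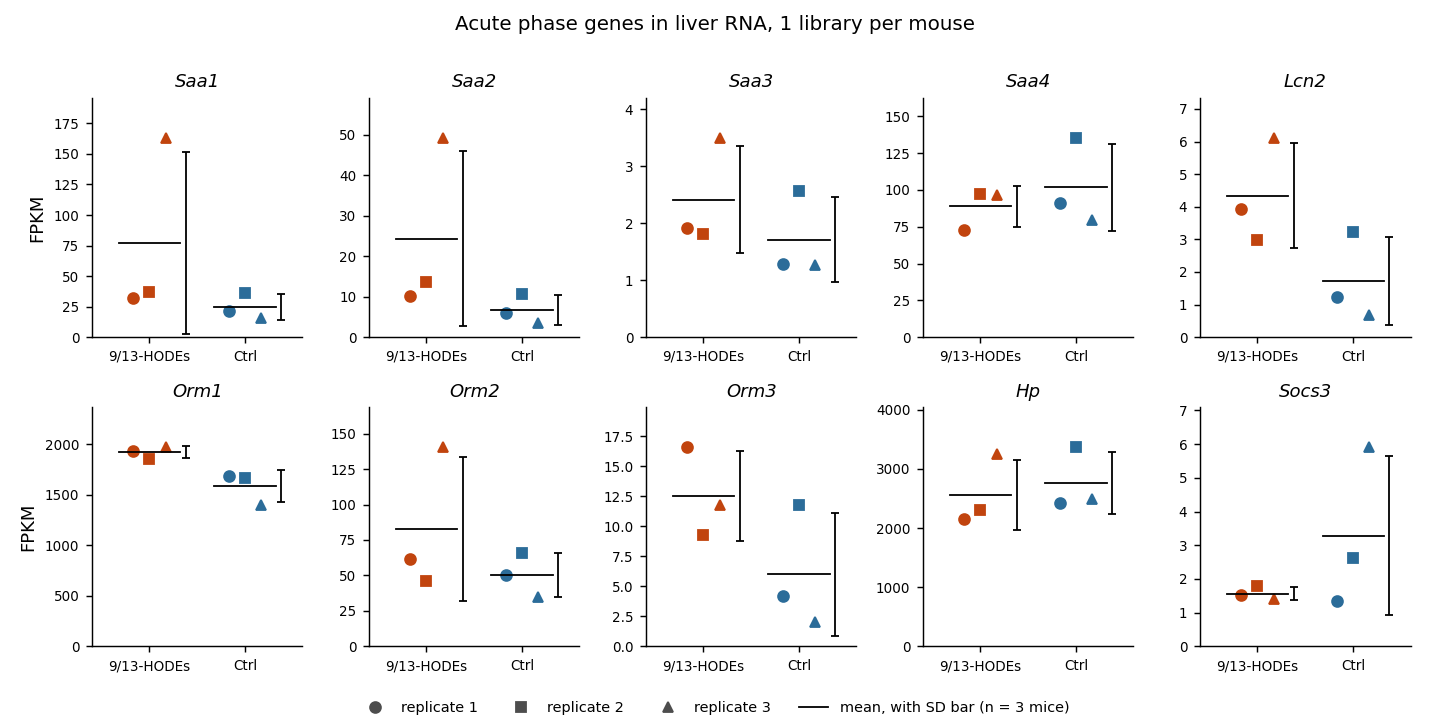
FPKM (vertical axes, from 0, 1 scale per gene) of the 10 acute phase genes in each liver library of the 9/13-HODEs group (left, red) and the Ctrl group (right, blue), with symbols for replicates, lines for means and bars for the SD of 3 mice. Saa1 and Saa2 reach 163 and 49.2 FPKM in 9/13-HODEs replicate 3, and only Orm1 shows no overlap between the groups. Orm1 is apart on the higher side, as were 5.28% of all genes tested, while 9.82% were apart on the lower.

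Lcn2, a protein that withholds iron from bacteria by binding their siderophores, had 3.93, 2.98 and 6.11 FPKM in 9/13-HODEs-treated livers and 1.22, 3.23 and 0.672 FPKM in Ctrl livers. Ctrl replicate 2 lay just above 9/13-HODEs replicate 2, and the other Ctrl livers lay below every 9/13-HODEs liver. Lcn2 had a log2 fold change of 1.39 (SE 0.62, 95% interval -0.08 to 2.87; edgeR unadjusted p = 0.0608, adjusted p = 0.666). Without Ctrl replicate 2 it was 2.29, with an unadjusted p of 0.00345 and an adjusted p of 0.578. Without 9/13-HODEs replicate 3 it was 1.01.

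Lcn2 is also a granule protein of neutrophils, so their markers were read beside it. Of 11 neutrophil markers, Ly6g, Camp and Ngp were at 0 in all 6 libraries. Their summed level was 3.15, 12.6 and 3.92 FPKM in 9/13-HODEs libraries and 1.59, 1.16 and 3.67 FPKM in Ctrl libraries. All 4 that passed the filter (S100a8, S100a9, Retnlg and Csf3r) had log2 fold changes above 0, as Lcn2 did, with a median of 1.54, and none had an unadjusted p under 0.05 by edgeR. S100a9, a calcium-binding granule protein, had 1.19, 7.20 and 2.63 FPKM in 9/13-HODEs libraries and 1.16, 0.618 and 1.89 FPKM in Ctrl libraries (edgeR unadjusted p = 0.0511, DESeq2 unadjusted p = 0.0151). 9/13-HODEs replicate 2 had the highest marker sum and the lowest Lcn2 of its group, and Ctrl replicate 2 had the lowest marker sum and the highest Lcn2 of its group. The 10 Kupffer cell and macrophage markers summed to 79.1 to 99.99 FPKM in 9/13-HODEs libraries and 68.4 to 86.3 FPKM in Ctrl libraries, and none was at 0 in all libraries. Their log2 fold changes were above 0 for 8 of the 10 with a median of 0.28, and C1qb, a complement component, had 17.4, 21.3 and 23.4 FPKM in 9/13-HODEs libraries and 14.1, 17.0 and 16.8 FPKM in Ctrl libraries (edgeR unadjusted p = 0.0330). Adgre1, which encodes a surface receptor of macrophages, went the other way without overlap, with 0.275, 0.339 and 0.261 FPKM in 9/13-HODEs libraries and 0.486, 0.448 and 0.394 FPKM in Ctrl libraries (log2 fold change -0.54, edgeR unadjusted p = 0.0632). Groups did not overlap for 2 of these 10 markers on the higher side (5.28% of all genes) and 1 on the lower (9.82%). The 6 adipocyte markers summed to 6.18, 1.82 and 4.86 FPKM in 9/13-HODEs libraries and 3.47, 2.61 and 0.582 FPKM in Ctrl libraries, most of it Cfd, and Adipoq was at 0 in every library but 9/13-HODEs replicate 1, where it had 0.581 FPKM. Retn, which encodes resistin, had 61, 8 and 10 counts in 9/13-HODEs libraries and 0 in each Ctrl library. It passed the filter only through the 9/13-HODEs group, so its tests are not used here. The part of these cells in the values of Lcn2 and Saa3 was not tested.

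Orm1, the main orosomucoid, a plasma carrier of basic and lipophilic compounds, had 1937, 1859 and 1972 FPKM in 9/13-HODEs-treated livers and 1687, 1672 and 1402 FPKM in Ctrl livers. Every 9/13-HODEs liver lay above every Ctrl liver. For Orm1 the log2 fold change was 0.34 (SE 0.14, 95% interval -0.0028 to 0.69; edgeR unadjusted p = 0.0514, adjusted p = 0.649), and leaving out single libraries gave 0.23 to 0.41. Orm2 had 61.3, 45.9 and 140 FPKM in 9/13-HODEs-treated livers and 50.4, 65.5 and 34.8 FPKM in Ctrl livers. Only 9/13-HODEs replicate 3 stood above the Ctrl livers, and the log2 fold change of 0.80 (SE 0.49, 95% interval -0.36 to 1.96; edgeR adjusted p = 0.719) became 0.11 without it. Orm3 had 16.6, 9.26 and 11.8 FPKM in 9/13-HODEs-treated livers and 4.19, 11.8 and 2.07 FPKM in Ctrl livers. Here 9/13-HODEs replicate 1 was highest, Ctrl replicate 2 lay among the 9/13-HODEs livers, and the other Ctrl livers lay below them. The log2 fold change of Orm3 was 1.10 (SE 0.63, 95% interval -0.41 to 2.61; edgeR adjusted p = 0.704), and 2.09 without Ctrl replicate 2. Per length, Orm1 exceeded Orm2 by 31.6, 40.5 and 14.1 times in 9/13-HODEs-treated livers and by 33.4, 25.5 and 40.3 times in Ctrl livers.

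Hp, which binds free haemoglobin for clearance, was the most abundant member, with 2146, 2299 and 3245 FPKM in 9/13-HODEs-treated livers and 2429, 3365 and 2484 FPKM in Ctrl livers. Each group had 1 high liver, 9/13-HODEs replicate 3 and Ctrl replicate 2, and the groups overlapped. The log2 fold change was -0.04 (SE 0.26, 95% interval -0.65 to 0.58; edgeR adjusted p = 0.986), and its sign turned when 1 of 3 single libraries was left out. Socs3 had 1.52, 1.79 and 1.39 FPKM in 9/13-HODEs-treated livers and 1.35, 2.61 and 5.90 FPKM in Ctrl livers. The 9/13-HODEs livers lay close together, Ctrl replicate 1 lay below them, and Ctrl replicate 3 was the highest of all. Socs3 had a log2 fold change of -0.98 (SE 0.48, 95% interval -2.13 to 0.16; edgeR unadjusted p = 0.0805, adjusted p = 0.677), or -0.31 without Ctrl replicate 3.

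**Figure D2:**
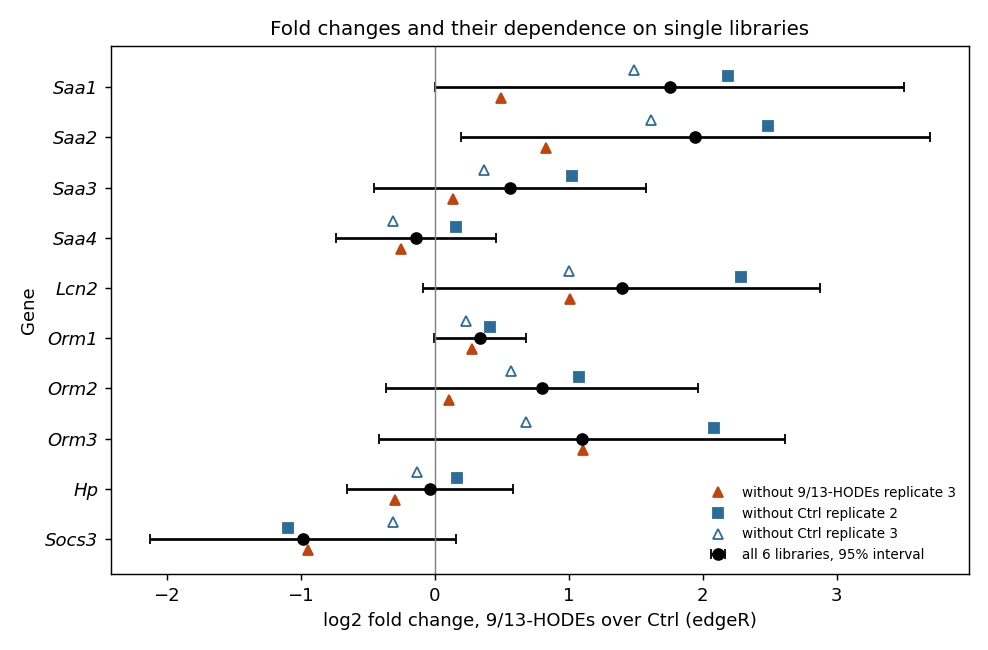
Log2 fold change (horizontal axis, 9/13-HODEs over Ctrl, edgeR) of each gene (rows), with black points and bars for all 6 libraries and their 95% interval and coloured symbols for the value without 1 library. Saa1 moves to 0.50 without 9/13-HODEs replicate 3, Lcn2 to 2.29 without Ctrl replicate 2 and Socs3 to -0.31 without Ctrl replicate 3.

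Over the 10 members, 0 had an adjusted p under 0.05 by edgeR, where 0.0204% of all genes tested (3 of 14741) did. At an unadjusted p under 0.05, 2 members were higher in 9/13-HODEs-treated livers (Saa1 and Saa2), where 4.08% of all genes were, and 0 were lower, where 3.61% were. By DESeq2, 0 members passed after adjustment, where 0.604% of all genes did, and 4 at the unadjusted threshold (Saa2, Lcn2, Orm1 and, lower, Socs3), where 7.84% did. By limma-trend 0 passed after adjustment, where 0.0271% did, and 3 at the unadjusted threshold (Saa2, Lcn2 and Orm1), where 7.82% did. The groups did not overlap for 1 member on the higher side, Orm1, where 5.28% of all genes showed this, and for 0 on the lower side, where 9.82% did. The median log2 fold change was 0.68 over the members, 7 of them positive, and 0.00 over all genes. Without 9/13-HODEs replicate 3 the members' median was 0.21, and without Ctrl replicate 2 it was 1.05.

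The unadjusted count by edgeR was 6 without Ctrl replicate 2 (Saa1, Saa2, Saa3, Lcn2, Orm1 and Orm3, all higher), where 3.97% of all genes were higher. It was 1 without Ctrl replicate 1 (Socs3, lower), where 2.69% of all genes were lower. It was 0 without 9/13-HODEs replicate 3 and without Ctrl replicate 3, where 6.74% and 5.87% of all genes passed in either direction. With Ctrl replicate 2 left out, 6 members did not overlap on the higher side, where 8.41% of all genes did not. Without 9/13-HODEs replicate 1 or 2 there were 3 on the higher side, where 9.05% and 7.54% of all genes stood. Without 9/13-HODEs replicate 3 or Ctrl replicate 1 there was 1 on each side, where 12.5% and 9.22% of all genes stood on the higher side and 13.2% and 15.3% on the lower.

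The order of the single livers was alike over many members. Among the Ctrl livers, replicate 2 was highest for 8 of 10 members (all but Orm1 and Socs3), as it was for 24.2% of all genes tested. Ctrl replicate 3 was the lowest of all 6 livers for 7 members (Saa1, Saa2, Saa3, Lcn2, Orm1, Orm2 and Orm3), as for 14.1% of all genes. 9/13-HODEs replicate 3 was the highest of all 6 for 6 members (Saa1, Saa2, Saa3, Lcn2, Orm1 and Orm2), as for 9.5% of all genes. Socs3 departed from this order, being highest in Ctrl replicate 3, the liver in which Saa1, Saa2 and Lcn2 were lowest. These genes share libraries, and those of a family share sequence, so the counts are a description.

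**Figure D3:**
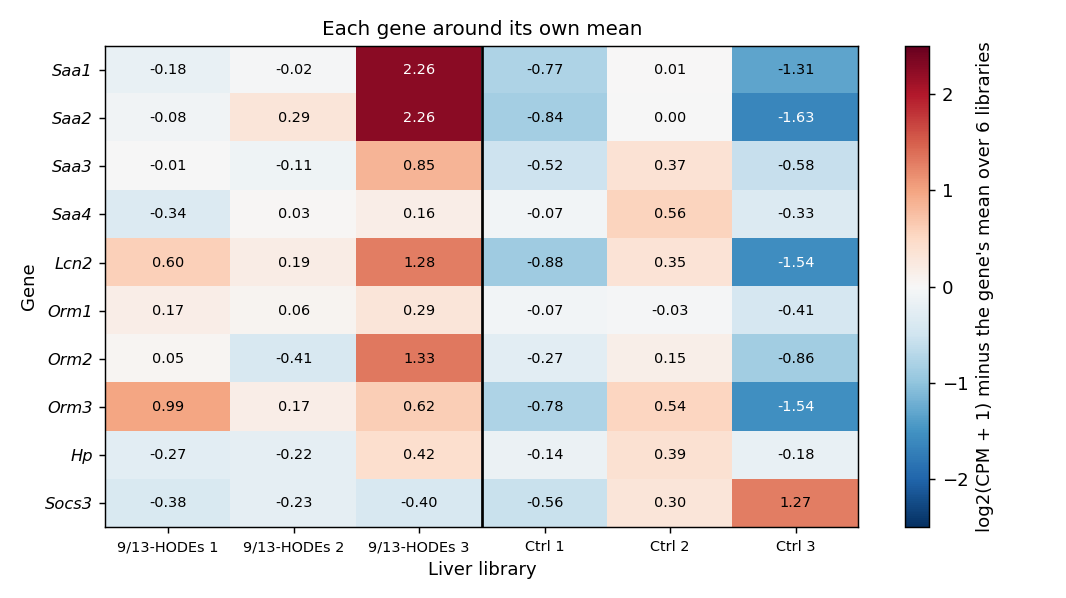
Log2(CPM + 1) of each gene (rows) minus its mean over the 6 libraries (columns, 9/13-HODEs left of the line, Ctrl right of it), with CPM the counts relative to the TMM-scaled library size. Saa1 and Saa2 stand at 2.26 in 9/13-HODEs replicate 3 and at -1.31 and -1.63 in Ctrl replicate 3, where Socs3 stands at 1.27.

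Ordered by mean FPKM over the 6 livers, Hp (2661) and Orm1 (1755) stood far above Saa4 (95.3), Orm2 (66.4), Saa1 (50.8), Saa2 (15.6), Orm3 (9.28), Lcn2 (3.02), Socs3 (2.43) and Saa3 (2.06). Hp and Orm1 did not overlap over the livers, nor did Orm1 and Saa4, whereas each later neighbour in this order overlapped the one before it. Within every liver, however, Saa1 stood above Saa2. The order changed in single livers, among them 9/13-HODEs replicate 3, where Saa1 (163 FPKM) and Orm2 (140 FPKM) stood above Saa4 (96.5 FPKM). Orm3 stood above Saa2 in 9/13-HODEs replicate 1 (16.6 against 10.2 FPKM) and in Ctrl replicate 2 (11.8 against 10.7 FPKM), and in Ctrl replicate 3 Socs3 (5.90 FPKM) stood above Saa2, Orm3 and Lcn2. The highest liver exceeded the lowest by 14.1 times for Saa2, 10.5 times for Saa1, 9.09 times for Lcn2 and 8.02 times for Orm3, and by 1.41 times for Orm1 and 1.57 times for Hp.

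Likeness to Saa1, Lcn2 and Orm1 was measured as the root mean square difference of centred log2(CPM + 1) over the 6 libraries, among 8252 genes of mean FPKM of at least 1. The genes most like Saa1 were Saa2 (0.19), Orm2 (0.51), Lcn2 (0.55), Cyp2a4 (0.57) and Mcrip2 (0.61), and Saa3 was seventh. Genes among those most like Lcn2 were Tmem62 (0.26), Orm3 (0.33), Cyp2a4 (0.37) and Gm44510 (0.40). The genes most like Orm1, which varied little, were Rps18 (0.02), Rps15 (0.03), Immp2l (0.03), S100a1 (0.03) and Cox5b-ps (0.03), and the nearest other member, Hp, ranked 4443. Socs3 ranked 7982 of 8252 in likeness to Saa1 and 8002 in likeness to Lcn2.

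Of 8 cytokines that induce these genes, 2 passed the filter. Il6, Il11 and Il22 had no count in any library, and Tnf, Osm and Lif had FPKM of 0.051 or less. Il1a, an interleukin-1 ligand, had 0.838, 0.667 and 0.477 FPKM in 9/13-HODEs-treated livers and 0.451, 0.351 and 0.499 FPKM in Ctrl livers, with overlapping groups (log2 fold change 0.66, edgeR unadjusted p = 0.0574, adjusted p = 0.658). Il1b had 0.07 to 0.293 FPKM in 9/13-HODEs-treated livers and 0 to 0.222 FPKM in Ctrl livers. Of 10 genes listed with the receptors, 8 were tested. Among the 8 was Il1rn, which encodes a receptor antagonist and not a receptor (log2 fold change 0.11). Il1rn is also counted below among the other positive acute phase genes. The 8 had 5 log2 fold changes above 0 (2 with FPKM scaled to a common sum, 4 with library totals) and a median of 0.08. An unadjusted p under 0.05 was found for 1, on the lower side (3.61% of all genes). Lifr, the receptor of leukemia inhibitory factor and a partner of the interleukin-6 signal transducer, had 9.33, 11.7 and 6.90 FPKM in 9/13-HODEs-treated livers and 12.4, 18.1 and 12.7 FPKM in Ctrl livers. All 9/13-HODEs livers lay below all Ctrl livers, as for 9.82% of all genes (log2 fold change -0.58, SE 0.23; edgeR unadjusted p = 0.0375, adjusted p = 0.649).

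All 15 kinases and transcription factors of the pathway were tested, with 9 log2 fold changes above 0, a median of 0.12, 3 with an unadjusted p under 0.05 on the higher side (4.08% of all genes) and 0 on the lower (3.61%). With FPKM scaled to a common sum and fitted by limma-trend, the median of all genes was -0.13 and 7 of the 15 were above 0. Limma-trend without that scaling had a median of -0.059 over all genes, and 8 of the 15 were above 0. Cebpd, a C/EBP factor that is itself inducible in the acute phase, had 2.46, 3.95 and 3.90 FPKM in 9/13-HODEs-treated livers and 2.12, 1.93 and 1.38 FPKM in Ctrl livers. Its groups did not overlap, as for 5.28% of all genes on the higher side (log2 fold change 0.98, SE 0.27; edgeR unadjusted p = 0.00881, adjusted p = 0.649). Cebpb, the related factor that drives many acute phase promoters, had 61.8, 72.1 and 90.5 FPKM in 9/13-HODEs-treated livers and 64.7, 54.9 and 49.9 FPKM in Ctrl livers. Its groups overlapped through Ctrl replicate 1, and 9/13-HODEs replicate 3 was highest and Ctrl replicate 3 lowest, as for Saa1 (log2 fold change 0.48, SE 0.20; edgeR unadjusted p = 0.0486, adjusted p = 0.649). Without 9/13-HODEs replicate 3 the value of Cebpb was 0.27 (unadjusted p = 0.137). Relb, an NF-kB subunit, had 0.460, 0.382 and 0.253 FPKM in 9/13-HODEs-treated livers and 0.246, 0.162 and 0.267 FPKM in Ctrl livers (log2 fold change 0.75, edgeR unadjusted p = 0.0497, adjusted p = 0.649). The groups of Relb overlapped, and its lowest 9/13-HODEs value was in replicate 3. Of 10 feedback genes, 9 were tested, 5 with a log2 fold change above 0 and 0 with an unadjusted p under 0.05. The smallest p values were those of Zfp36, which promotes decay of inflammatory mRNAs (log2 fold change 0.20, edgeR unadjusted p = 0.151, adjusted p = 0.721), and Nfkbiz, a nuclear IkB protein (log2 fold change 0.37, edgeR unadjusted p = 0.397, adjusted p = 0.840).

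The 22 other positive acute phase genes, all tested, had 11 log2 fold changes above 0 and 11 below after TMM scaling, with a median of 0.01. The number above 0 was 8 with FPKM scaled to a common sum, 9 with library totals, 7 without Ctrl replicate 1 and 15 without Ctrl replicate 2. Groups did not overlap for 2 of the 22 on the higher side and 3 on the lower, Fgg among them. Of all genes, 5.28% and 9.82% did not overlap on these sides. At an unadjusted p under 0.05 there were 2 in each direction, where 4.08% of all genes were higher and 3.61% lower. The higher pair were the metallothioneins, which bind zinc and copper. Mt1 had 397, 234 and 418 FPKM in 9/13-HODEs-treated livers and 107, 129 and 111 FPKM in Ctrl livers, with no overlap. Its log2 fold change was 1.67 (SE 0.26, 95% interval 1.05 to 2.30; edgeR unadjusted p = 0.000451, adjusted p = 0.350). Mt2 had 258, 115 and 230 FPKM in 9/13-HODEs-treated livers and 38.9, 72.7 and 79.4 FPKM in Ctrl livers, with no overlap (log2 fold change 1.74, SE 0.39; edgeR unadjusted p = 0.00342, adjusted p = 0.649). By DESeq2, Mt1 and Mt2 had adjusted p of 1.2e-06 and 0.00096. The lower pair were Crp, a pentraxin, and Fga, a fibrinogen chain. Crp had 34.8, 37.2 and 40.7 FPKM in 9/13-HODEs-treated livers and 46.6, 46.4 and 52.2 FPKM in Ctrl livers, with no overlap (log2 fold change -0.29, SE 0.11; edgeR unadjusted p = 0.0360, adjusted p = 0.649). Fga had 530, 462 and 471 FPKM in 9/13-HODEs-treated livers and 601, 577 and 753 FPKM in Ctrl livers, with no overlap (log2 fold change -0.33, SE 0.13; edgeR unadjusted p = 0.0457, adjusted p = 0.649).

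Of 9 genes listed as negative acute phase genes, a class that falls in the acute phase, 6 had a log2 fold change above 0 after TMM scaling. The median of the 9 was 0.03. The number above 0 was 1 with FPKM scaled to a common sum (median -0.12), 2 with library totals and 1 without 9/13-HODEs replicate 3. Groups did not overlap for 2 of the 9, both on the lower side (9.82% of all genes). An unadjusted p under 0.05 was found for 1, on the lower side (3.61% of all genes). It was Serpina1e, an alpha-1-antitrypsin paralog whose place among the negative acute phase genes was not tested here. Serpina1e had 1451, 3257 and 3251 FPKM in 9/13-HODEs-treated livers and 5489, 6419 and 5281 FPKM in Ctrl livers. All 9/13-HODEs livers lay below all Ctrl livers (log2 fold change -1.04, SE 0.34; edgeR unadjusted p = 0.0191, adjusted p = 0.649), and as Serpina1 paralogs are very alike, the division of reads among them is uncertain. Of 8 partners of the secreted proteins, 6 were tested and all 6 log2 fold changes were above 0 after TMM scaling (4 with FPKM scaled to a common sum and 4 with library totals), with a median of 0.41 and 1 with an unadjusted p under 0.05 on the higher side (4.08% of all genes). Hmox1, the haem-degrading enzyme downstream of haptoglobin clearance, had 6.39, 6.96 and 5.99 FPKM in 9/13-HODEs-treated livers and 4.36, 4.63 and 5.90 FPKM in Ctrl livers. Its groups did not overlap, by a narrow margin, as for 5.28% of all genes on the higher side (log2 fold change 0.44, SE 0.14; edgeR unadjusted p = 0.0167, adjusted p = 0.649). When each of the 6 libraries was left out in turn, the unadjusted edgeR p stayed under 0.05 every time for Cebpd, Mt1 and Mt2. For Cebpb, Relb, Lifr, Hmox1, Crp, Fga and Serpina1e it did not. These genes were picked by that p with all libraries, and the omissions reuse the same libraries, so this is no independent check.

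**Figure D4:**
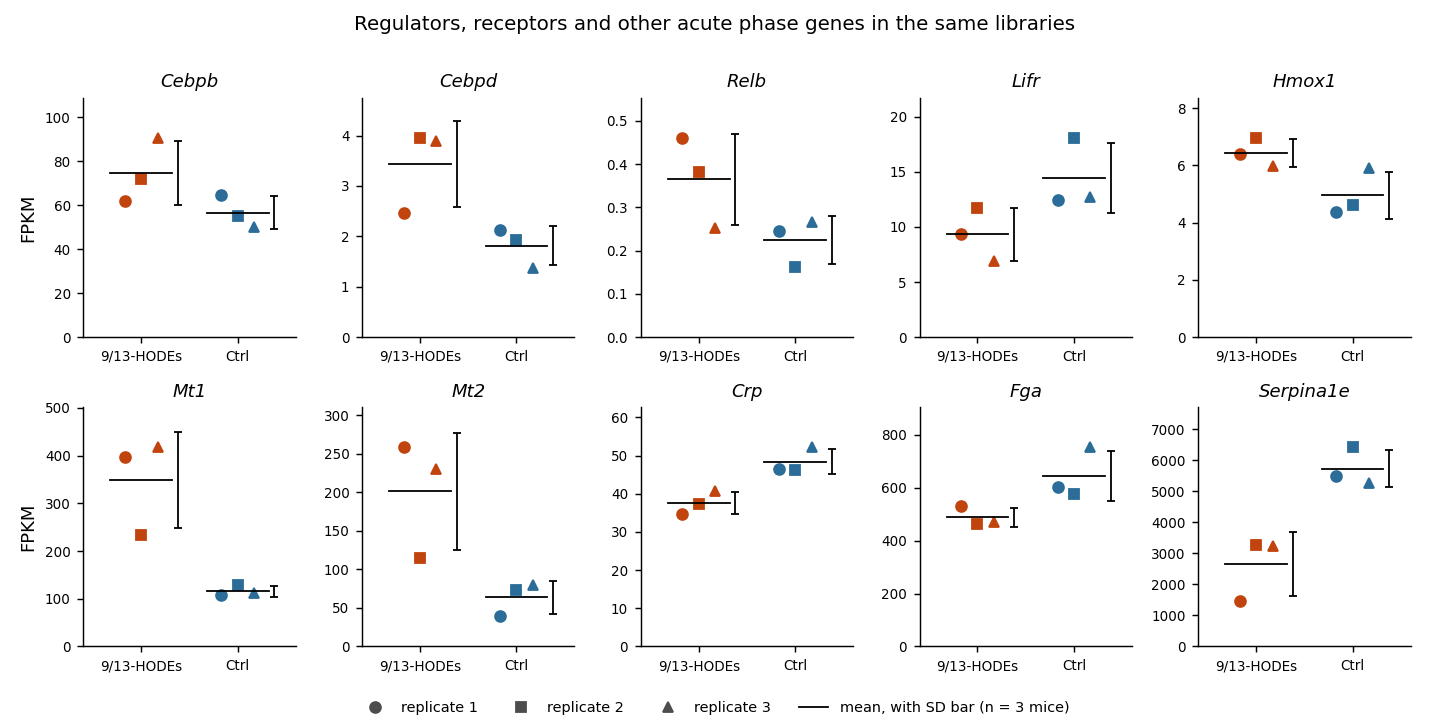
FPKM (vertical axes, from 0, 1 scale per gene) of 10 regulators, receptors, partners and other acute phase genes with an unadjusted p under 0.05 in each liver library of the 9/13-HODEs group (left, red) and the Ctrl group (right, blue), with symbols for replicates, lines for means and bars for the SD of 3 mice. Mt1, Mt2, Cebpd and Hmox1 are higher in every 9/13-HODEs liver than in every Ctrl liver, and Crp, Fga, Lifr and Serpina1e are lower. Of all genes tested, 5.28% did not overlap on the higher side and 9.82% on the lower. The 10 genes shown were picked by their p in the same libraries, so their number without overlap cannot be read against those shares.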

How the data were processed

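Liver RNA of 3 mice treated with 9/13-HODEs and 3 Ctrl mice was compared, each mouse giving 1 poly(A)-selected, strand-marked, paired-end library. The authors deposited whole-number counts and FPKM values (counts scaled by gene length and depth) per gene model. The submitters' processing notes list StringTie 1.3.4d, HISAT2 2.0.4, cutadapt 1.9, edgeR, DESeq2 and UMI-tools. Whether reads or unique molecules were counted, and the strand setting, are not given in the sources used here. All 6 libraries were used.

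Counts of 14741 genes (mean FPKM over the libraries not under 0.1) were tested with edgeR 4.0.16 (R 4.3.3; TMM, quasi-likelihood test, group only, Benjamini-Hochberg adjustment over all tested genes, threshold 0.05). "Higher" and "lower" describe values, and no member passed that threshold. The fits were tested on simulated data, which gives no value used here. Alternatives were DESeq2 1.42.0, limma-trend (limma 3.58.1) on log2(FPKM + 0.1) or log2(FPKM + 1), other scalings and filters, a replicate block, FPKM scaled to a common sum, and omission of each library. FPKM scaled to a common sum were also fitted by limma-trend, on log2 with 0.1 added and without TMM. No gene annotation columns other than names and coordinates were used.

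The members and lists were chosen with earlier results of these data known. Named genes are all members, and in each pathway list those with an unadjusted p under 0.05 or, failing that, the 2 of smallest p. For likeness, the 5 nearest genes to Saa1, Lcn2 and Orm1 were taken, of which 1 is not reported here. The markers C1qb, Adgre1, S100a9, Cps1, Apob, Cfd, Retn and Adipoq were named because of their values. Paralogs were compared with BLAST 2.17.0 (90% identity or more, covering no less than 150 bases and 50% of a transcript).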

Additional observations from a re-analysis of the deposited data

How the results depend on the processing

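With 3 mice per group, the intervals of the inducible genes were wide, as for Saa1 (SE 0.73) and Saa2 (SE 0.73). The coefficient of variation of 0.36 is a common value over all genes and not the spread of these. Over 15 alternatives and 10 members, 146 of 150 log2 fold changes kept their sign and 0 had an adjusted p under 0.05. Omission of a library gave Hp values of -0.29 to 0.17, which were above 0 in 3 omissions (0.09 without 9/13-HODEs replicate 1, 0.07 without 9/13-HODEs replicate 2 and 0.17 without Ctrl replicate 2), Saa4 values of -0.31 to 0.16, above 0 without Ctrl replicate 2, and Il1b values of -0.068 to 1.27, below 0 without 9/13-HODEs replicate 2 and without Ctrl replicate 1 (-0.03). The unadjusted count of 2 members (7.69% of all genes) was 4 with DESeq2 (7.84% of all genes), 4 with no filter and 1 with FPKM scaled to a common sum (9.44% of all genes). That setting was fitted by limma-trend, so it differs from edgeR in tool as well as in scaling. It put the median log2 fold change over all genes at -0.13 and that over the pathway lists at -0.080 (0.064 by edgeR). Its unadjusted calls split into 277 higher and 1114 lower, against 601 and 532 by edgeR. Limma-trend on log2(FPKM + 0.1) without that scaling gave medians of -0.059 over all genes and 0.0002 over the pathway lists. Its unadjusted calls split into 420 higher and 733 lower. Omission of a library gave 0 to 6 members at unadjusted p, 1 to 6 members without overlap, 3 to 16 genes of the whole table with an adjusted p under 0.05 (3 with all libraries), 0 to 1 pathway gene with an adjusted p under 0.05 (Mt1, without 9/13-HODEs replicate 2, adjusted p 0.0384) and 5 to 10 pathway genes at unadjusted p (10 with all libraries). DESeq2 called 89 genes of the whole table, among them 2 pathway genes, Mt1 and Mt2. The cause of these differences was not tested.

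No pairing of the livers by replicate number was seen, as same-numbered livers had correlations of 0.02, -0.01 and -0.01 of their deviations over genes. Livers of different numbers had -0.01 to 0.02. Whether the design paired them cannot be told from these values. With a replicate block, 0 members had an unadjusted p under 0.05, and 0 genes an adjusted one.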
